A study of Mus musculus with 6 samples.

Results

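The regulators that turn an airway progenitor into a multiciliated cell (MCC) were followed in the lungs of 6 mouse embryos at E18.5, of which 3 were WT and 3 *Tnrc6a* null, by arrays of whole-lung RNA. They are *Gmnc*, *Mcidas*, *E2f4*, *E2f5*, *Myb*, *Trp73*, *Ccno*, *Foxj1*, *Rfx2* and *Rfx3*, named by their known place in this programme, and all 10 had a probe set among the 19938 genes measured. The null embryos were homozygous for a gene trap carrying β-galactosidase in *Tnrc6a*, which encodes a partner of the Argonaute proteins of the miRNA pathway, so the gene was disrupted in every cell and not in MCCs alone. WT embryos were littermates, all lungs had the strain background C57Bl/6 in the labels, no treatment is named, and each array held the RNA of a single embryo. An array value therefore averages over airway, alveolar, mesenchymal, vascular and blood cells, and fewer cells of a type and less RNA per cell cannot be told apart.

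MCCs are the airway cells that carry beating cilia and clear mucus. Their differentiation starts when Notch signalling falls and GMNC and then MCIDAS, relatives of the replication inhibitor geminin, join E2F4 or E2F5 and their DP partner to switch on genes for making centrioles in large numbers. Downstream, MYB, p73 and the cyclin CCNO carry the cell through centriole amplification, and FOXJ1 with RFX2 and RFX3 switches on the genes of the motile axoneme. GMNC and MCIDAS act through E2F proteins rather than by a DNA-binding domain of their own and CCNO is a cyclin, so the group holds regulators of several kinds and not transcription factors alone. The comparison asks whether the transcripts of these regulators differ between genotypes. The study approached MCC fate with FOXJ1 staining of lungs and with a FOXJ1-EGFP reporter in cultured null cells.

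The promoters of these genes are shown because the regulators are known to act on one another's genes. RFX proteins bind the X-box, and its core GTTGCC was searched on both strands of the 300 bases from 250 before to 50 after each gene start, from RefSeq. Promoters were found for 7 of the 10 genes, 9 promoters in all, and 5 of the 9 held the core, in *Rfx2*, *Rfx3*, *Mcidas*, *Ccno* and the upstream start of *Trp73*, against 12.5% of all 32851 promoters of this length. They are printed here 5′ to 3′ on the strand of the gene, with every match to the 3 motifs searched in capitals, read in this direction or as the reverse complement.
Rfx2, GRCm38.p6, chr17:56830959-56831258, minus strand: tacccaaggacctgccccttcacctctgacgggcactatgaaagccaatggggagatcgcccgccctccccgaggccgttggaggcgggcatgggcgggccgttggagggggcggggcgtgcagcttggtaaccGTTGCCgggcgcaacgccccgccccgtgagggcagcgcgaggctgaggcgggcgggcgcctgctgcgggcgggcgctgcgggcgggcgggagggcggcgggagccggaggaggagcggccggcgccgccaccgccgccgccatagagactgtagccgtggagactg
Rfx3, GRCm38.p6, chr19:28011117-28011416, minus strand: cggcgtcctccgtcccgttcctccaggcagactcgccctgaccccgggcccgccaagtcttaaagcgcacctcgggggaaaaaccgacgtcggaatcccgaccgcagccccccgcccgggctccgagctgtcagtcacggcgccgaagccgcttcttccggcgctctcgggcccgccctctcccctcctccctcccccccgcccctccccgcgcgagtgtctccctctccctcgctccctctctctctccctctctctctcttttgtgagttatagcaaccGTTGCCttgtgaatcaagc
Mcidas, GRCm38.p6, chr13:112993618-112993917, plus strand: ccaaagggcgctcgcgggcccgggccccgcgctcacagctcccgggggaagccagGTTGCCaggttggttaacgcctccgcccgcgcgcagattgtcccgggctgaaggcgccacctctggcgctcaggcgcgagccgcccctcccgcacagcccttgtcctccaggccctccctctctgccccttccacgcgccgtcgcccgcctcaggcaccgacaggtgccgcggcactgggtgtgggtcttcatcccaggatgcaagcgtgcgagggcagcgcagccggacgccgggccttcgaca
Ccno, GRCm38.p6, chr13:112987552-112987851, plus strand: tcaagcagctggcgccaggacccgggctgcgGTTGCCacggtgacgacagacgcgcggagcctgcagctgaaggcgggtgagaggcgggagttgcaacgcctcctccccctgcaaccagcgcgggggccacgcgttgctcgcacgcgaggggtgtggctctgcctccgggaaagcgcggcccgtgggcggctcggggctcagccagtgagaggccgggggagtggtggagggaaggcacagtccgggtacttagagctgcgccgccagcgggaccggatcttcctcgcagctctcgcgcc
Trp73, GRCm38.p6, chr4:154139826-154140125, minus strand: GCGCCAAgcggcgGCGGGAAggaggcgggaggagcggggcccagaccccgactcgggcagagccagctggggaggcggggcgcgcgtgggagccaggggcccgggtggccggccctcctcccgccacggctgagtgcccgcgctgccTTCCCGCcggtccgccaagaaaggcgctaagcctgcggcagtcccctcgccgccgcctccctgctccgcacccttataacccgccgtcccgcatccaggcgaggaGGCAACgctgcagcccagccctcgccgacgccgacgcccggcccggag
The core lay in the direction of the gene in *Rfx2* (first base at position 135 of the window), *Mcidas* (position 56) and *Ccno* (position 32), and after the start in *Rfx3* (position 282). In *Trp73* it lay on the opposite strand, just after the start (position 253). All 5 were rich in G and C, at 68% to 77.7% of bases against a median of 52.7% over all promoters, and the part of base composition in these matches was not tested. The E2F core was searched on both strands as TTGGCGC, with the variants TTCCCGC and, in addition, TTGCCGC, as well as the form TTCGCGC. These forms had 3 matches in this *Trp73* promoter and none in the other 8, and 9.57% of all promoters held at least 1. They all end in CGC, so E2F sites that end otherwise would be missed, in *Myb* and the other promoters alike. The forkhead core TGTTTA, the letters that FOXJ1 and many of its relatives read, was found once among the 9, after the start of *Myb*, against 13.4% of all promoters. The X-box core and the E2F form TTGCCGC can share letters, though no match overlapped another in the 9 promoters, and a match describes letters and not a bound site. *Ccno* and *Mcidas* are also direct neighbours in the genome, followed by *Cdc20b*, the host gene of miR-449. *Foxj1*, *E2f4* and *E2f5* are named only.

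Signals are given as the authors deposited them, on a log scale, named as log2 by the labels. The base could not be settled here, so changes are differences on that scale, *Tnrc6a* null minus WT, and not folds. A signal depends on the probes as well as on the RNA, so no gene's signal is set against another's. The targeted gene, *Tnrc6a*, had WT signals of 7.38, 7.13 and 7.18 and null signals of 5.45, 5.04 and 5.4, a difference of -1.93 (adjusted p = 0.00312 from limma). It was the 1 gene of 19938 (0.00502%) past an adjusted p of 0.05, and without WT replicate 3 it missed that threshold (adjusted p = 0.0552). The lung markers *Sftpc*, *Nkx2-1*, *Epcam* and *Cdh1* were all above the median signal of all genes, and *Ttr*, *Neurod1* and *Gfap*, which lung should lack, below it. Across genes, WT replicate 1 correlated better with null replicate 3 (r = 0.992) than with the other WT lungs (0.987 and 0.988), and no shared batch of these lungs is named in the sources used here.

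None of the 10 regulators passed the test, whether *Gmnc* at the top of the programme or *Foxj1* at its end. The count was 0 of 10 at an adjusted p of 0.05 (smallest adjusted p = 0.892 from limma), 0 of 10 at an unadjusted p under 0.05 against 5.42% of all genes, and 0 of 10 with lungs of the genotypes that did not overlap against 10.2% of all genes (4.67% higher and 5.51% lower in the null lungs). Means were higher in the null lungs for 6 genes (49.2% of all genes were) and lower for 4 (49.8% of all genes were), the median difference was 0.065 against 0 over all genes, and all 10 differences lay between the 5th and the 95th percentile of all genes, at -0.23 and 0.34. The 95% interval of every difference held 0. Its reach differed from gene to gene, with a width to either side of 0.18 for *E2f4* and 0.425 for *Gmnc*, so a rise of 0.3 lay outside the intervals of *Foxj1*, *Rfx2*, *Rfx3*, *Myb*, *E2f4* and *E2f5* and inside those of *Gmnc*, *Mcidas*, *Ccno* and *Trp73*.

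**Figure D1:**
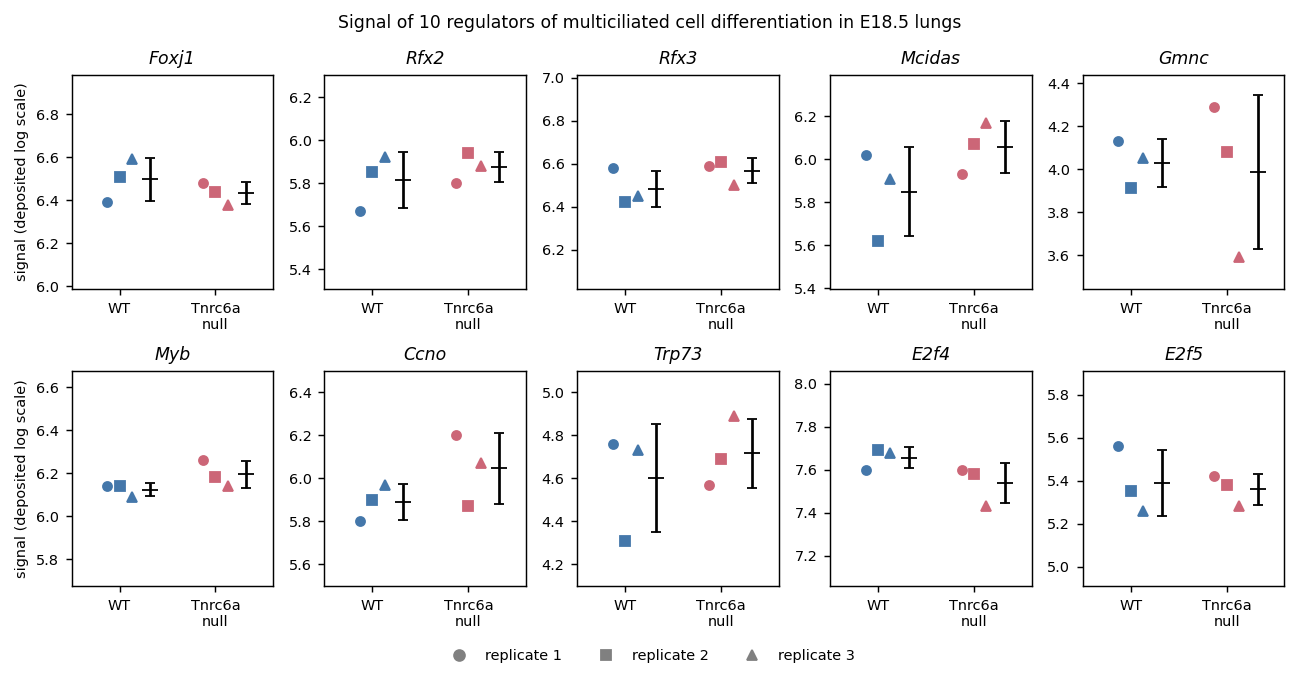
Signal of the 10 regulators in each E18.5 lung on the deposited log scale (vertical axes, each spanning 1 unit), with WT in blue and *Tnrc6a* null in red. Each point is 1 lung, marked by its replicate number, which ties no lung of a genotype to a lung of the other, and the bars are the mean and SD of 3 lungs. The lungs of the genotypes overlap or meet for every gene, and *Mcidas*, *Trp73* and *Gmnc* spread the most, over 0.55, 0.58 and 0.7.

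The switches at the top of the programme were first examined. *Gmnc*, the earliest known of them, had WT signals of 4.13, 3.91 and 4.05 and null signals of 4.29, 4.08 and 3.59. The lowest and the highest lung of all were both null lungs, and the genotypes overlapped. The difference was -0.04 with a standard error of 0.187 (95% interval -0.469 to 0.382, adjusted p = 0.982 from limma), and it turned to 0.155 without null replicate 3. *Mcidas*, which *Gmnc* is known to activate, had WT signals of 6.02, 5.62 and 5.91 (mean 5.85 ± 0.21 SD, n = 3) and null signals of 5.93, 6.07 and 6.17 (mean 6.06 ± 0.12 SD, n = 3). Every null lung lay above WT replicates 2 and 3, and WT replicate 1 lay above null replicate 1. The difference was 0.21 with a standard error of 0.124, the furthest from 0 of the 10, with a 95% interval from -0.075 to 0.488 (adjusted p = 0.892 from limma). Of all genes, 19.3% had a difference at least as far from 0. *Mcidas* stood at 0.092 without WT replicate 2 and at 0.292 without WT replicate 1. It kept its sign in all 19 alternatives, though several of them leave its difference as it was and could not turn it.

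*Ccno*, the cyclin gene beside *Mcidas*, had WT signals of 5.8, 5.9 and 5.97 (mean 5.89 ± 0.09 SD, n = 3) and null signals of 6.2, 5.87 and 6.07 (mean 6.05 ± 0.17 SD, n = 3). Null replicates 1 and 3 lay above every WT lung, and null replicate 2 lay among them. The difference was 0.16 with a standard error of 0.109 (95% interval -0.091 to 0.404, adjusted p = 0.897 from limma). The neighbours were thus both higher on average, though not in the same lungs, since *Ccno* was highest in null replicate 1 and *Mcidas* in null replicate 3. The next gene along, *Cdc20b*, had a difference of 0.10 with a standard error of 0.254.

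The E2F proteins that carry MCIDAS and GMNC to DNA came next. *E2f4* had WT signals of 7.6, 7.69 and 7.68 (mean 7.66 ± 0.05 SD, n = 3) and null signals of 7.6, 7.58 and 7.43 (mean 7.54 ± 0.09 SD, n = 3). The genotypes met at 7.6, the value of WT replicate 1 and null replicate 1, and the other null lungs lay below every WT lung. The difference of -0.12 had a standard error of 0.079 and a 95% interval from -0.3 to 0.06 (adjusted p = 0.897 from limma), and it was the furthest below 0 of the 10. *E2f5*, its closest relative, had WT signals of 5.56, 5.35 and 5.26 and null signals of 5.42, 5.38 and 5.28. The null lungs lay within the range of the WT lungs. The difference was -0.03 (95% interval -0.282 to 0.222), and it was positive without WT replicate 1, without null replicate 3 and with array weights.

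*Myb* and *Trp73* act between these switches and the ciliary genes. *Myb*, whose product drives the early, cycling-like phase of the MCC and is also used by blood progenitors, had WT signals of 6.14, 6.14 and 6.09 and null signals of 6.26, 6.18 and 6.14. The lowest null lung met the 2 highest WT lungs, and all values fell within 0.17, the narrowest range of the 10. The difference was 0.07 with a standard error of 0.083 (95% interval -0.118 to 0.258, adjusted p = 0.931 from limma). Beside it, all 7 genes set as markers of blood progenitors and lymphocytes had lower means in the null lungs. Mean levels over the list were 6.33 to 6.62 in the WT lungs and 6.11 to 6.54 in the null lungs. Of the 7, 5 lay above the median signal of all genes, and whether other lung cells contribute to them was not checked. Their part in the value of *Myb* was not tested. *Trp73*, which encodes the p53 relative p73, had WT signals of 4.76, 4.31 and 4.73 and null signals of 4.57, 4.69 and 4.89. WT replicate 2 was low, and without it the difference of 0.12 (95% interval -0.235 to 0.469) turned to -0.03.

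The regulators of the cilium itself were among the steadiest. *Foxj1*, the forkhead factor that marks MCC fate, had WT signals of 6.39, 6.51 and 6.59 (mean 6.50 ± 0.10 SD, n = 3) and null signals of 6.48, 6.44 and 6.38 (mean 6.43 ± 0.05 SD, n = 3). WT replicate 1 and null replicate 3 were the lowest lungs, and the genotypes overlapped. The difference was -0.06 with a standard error of 0.087, and its 95% interval ran from -0.262 to 0.135 (adjusted p = 0.937 from limma). Leaving out 1 lung at a time, it lay between -0.117 and -0.017. *Rfx2* had WT signals of 5.67, 5.85 and 5.92 and null signals of 5.8, 5.94 and 5.88, and *Rfx3* had WT signals of 6.58, 6.42 and 6.45 and null signals of 6.59, 6.61 and 6.5. For *Rfx2*, WT replicate 1 was the lowest lung, and for *Rfx3* it was the highest of the WT lungs. The difference was 0.06 for *Rfx2* (95% interval -0.168 to 0.288) and 0.08 for *Rfx3* (95% interval -0.11 to 0.277), and that of *Rfx2* was -0.01 without WT replicate 1. The spread within a genotype lay below the median of all genes, 0.154, for 7 of the 10 regulators, at 0.08 for *Foxj1* and 0.048 for *Myb*, and above it for *Mcidas* (0.169), *Trp73* (0.211) and *Gmnc* (0.266).

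**Figure D2:**
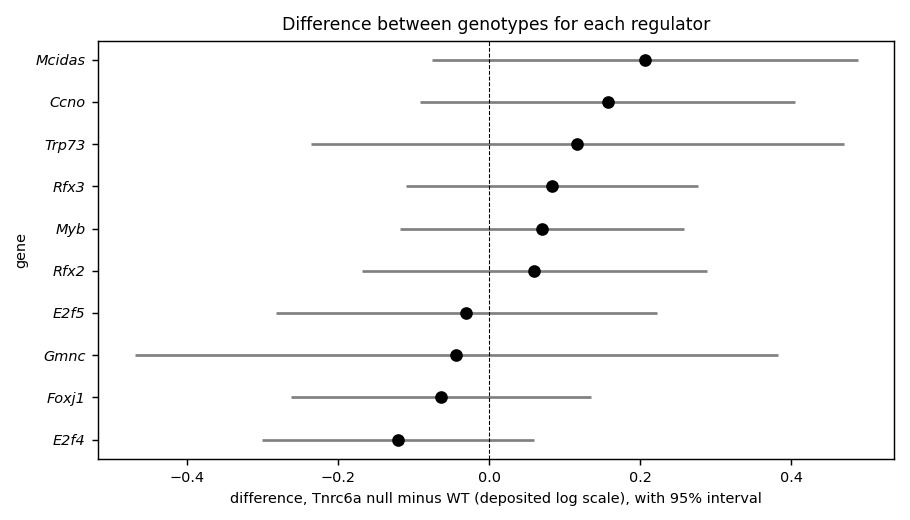
Difference of each regulator between the mean of the null and of the WT lungs (horizontal axis, deposited log scale), ordered by size. Points are the differences and lines their 95% intervals from limma, 3 lungs against 3. Every line crosses 0, from -0.469 at the left end for *Gmnc* to 0.488 at the right end for *Mcidas*.

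Across the 6 lungs the regulators did not rise and fall as a block. Null replicate 1 and null replicate 2 were above the mean of the 6 lungs for 7 of the 10 genes each, WT replicates 1 and 3 for 6 each, null replicate 3 for 4 and WT replicate 2 for 3. WT replicate 2 held the lowest value of *Rfx3*, *Mcidas* and *Trp73*, and null replicate 3 that of *Foxj1*, *Gmnc* and *E2f4*. Over the 45 pairs of regulators Pearson's r across the 6 lungs ran from -0.859 for *Rfx2* with *E2f5* to 0.932 for *Mcidas* with *Trp73*, values that rest on 6 points which share 2 genotypes and the scaling of each array. The 5 genes most like *Foxj1*, among 9966 others above the median signal, were *Tiam1* (r = 0.994 over 6 lungs), *Kcna3* (0.988), *Oxsm* (0.985), *Ptpmt1* (0.985) and *Smad7* (0.984). They are the highest of 9966 correlations over 6 points, so a high r was reached by selection. None of them belongs to the motile cilium or centriole lists. Those lists hold only 24 and 13 genes above the median signal, so their absence from 5 places says little. *Tiam1* encodes an activator of the GTPase RAC1, *Kcna3* a potassium channel and *Smad7* an inhibitor of TGF-β signalling.

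Genes related to the regulators, or partners of their proteins, had differences of either sign. Of 31 measured, 18 had higher means in the null lungs and 13 lower, with a median difference of 0.04 against 0 over all genes. At an unadjusted p under 0.05, 2 were higher (2.46% of all genes were) and 2 lower (2.96% of all genes), and 0 passed after adjustment. Those higher were *Mybl2*, a cell cycle relative of *Myb*, at 0.33 with a standard error of 0.104, and *Cdk1*, the kinase of mitotic entry, at 0.30 with a standard error of 0.093. *Mybl2* averaged 5.88 ± 0.17 (SD, n = 3) in WT and 6.21 ± 0.04 (SD, n = 3) in null lungs. Those lower were *Foxj2*, a forkhead relative of *Foxj1*, at -0.23 with a standard error of 0.076, and *E2f2*, a cell cycle E2F, at -0.23 with a standard error of 0.101. For each of these 4 every null lung lay to the same side of every WT lung, which their choice by small p makes likely. Over the list this held for 3 genes higher in the null lungs (4.67% of all genes were) and 4 lower (5.51% of all genes were). Beside *Mybl2* and *Cdk1*, markers of dividing cells had higher means in the null lungs for 9 of 9 measured, *Cdk1* itself among them, and mean levels over the list of 6.65 to 7.11 in the WT lungs and 6.73 to 7.27 in the null lungs. Their part in the values of these genes was not tested.

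Partners and relatives named in the plan, which was written with earlier results of these data known, are given next. The genes above were those of smallest p in the list, so these 9 form no contrast with them. *Gmnn*, which encodes geminin, the binding partner of MCIDAS and GMNC, had a difference of 0.12 with a standard error of 0.179. *Tfdp1* and *Tfdp2*, which encode the DP proteins that pair with E2F4 and E2F5, had differences of 0.04 (standard error 0.080) and -0.08 (standard error 0.117). The difference was -0.14 for the pocket protein gene *Rbl2* (standard error 0.111), 0.06 for *Rbl1* (standard error 0.138), 0.04 for *Foxn4*, a forkhead factor of MCCs (standard error 0.111), and -0.04 for *Rfx1* (standard error 0.085). It was 0.09 for *Mybl1* (standard error 0.149) and 0.09 for *Trp63*, the basal cell relative of *Trp73* (standard error 0.160). None of these 9 lay at an unadjusted p under 0.05. *Mybl2* was named in the plan with them and did lie under that threshold. It is given above with the genes of smallest p, so the 9 are not the whole planned set.

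**Figure D3:**
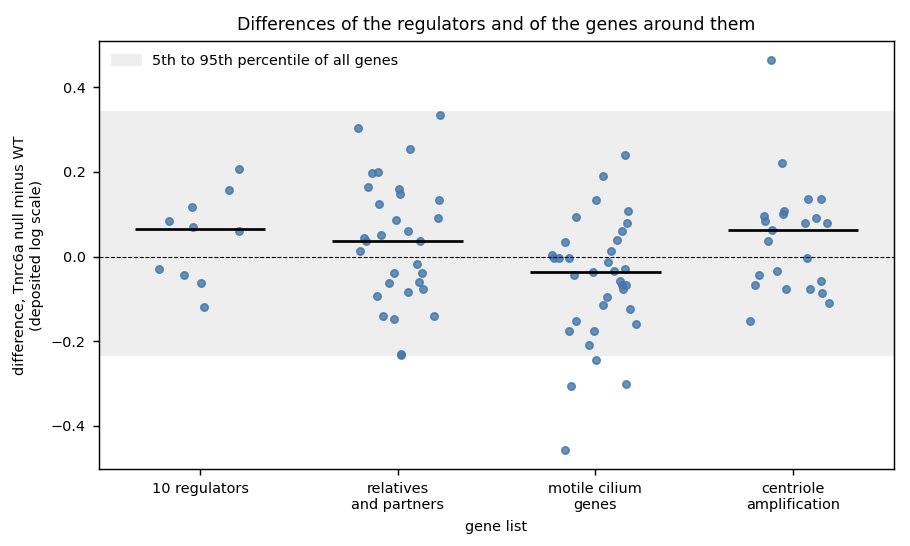
Difference of each gene between the mean of the null and of the WT lungs (vertical axis, deposited log scale), for the 10 regulators, 31 relatives and partners, 35 motile cilium genes and 23 centriole amplification genes. Each point is 1 gene, black lines are the medians of the lists, and the grey band runs from the 5th to the 95th percentile of all genes. The regulators lie inside the band, and *Rsph1* at -0.46 and *Stil* at 0.46 are the points furthest out.

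Downstream of *Foxj1* and the RFX factors, motile cilium genes leaned to lower means. Of 35 measured, 24 were lower and 11 higher, where 49.8% of all genes were lower, and the median difference was -0.04. At an unadjusted p under 0.05, 2 of the 35 were lower (2.96% of all genes were) and 0 higher (2.46% of all genes were), and 0 passed after adjustment (adjusted p = 0.89 from limma for *Rsph1*). They were *Rsph1*, a radial spoke gene, and *Fank1*, at -0.46 (standard error 0.103) and -0.31 (standard error 0.111). *Fank1* averaged 5.04 ± 0.14 (SD, n = 3) in WT and 4.74 ± 0.04 (SD, n = 3) in null lungs, with no overlap. Next by p came *Tppp3*, a tubulin-binding protein gene, and *Tekt2*, which encodes a tektin of the axoneme, both at -0.18 and both lower in each null lung. Over the list, lungs of the genotypes did not overlap for 4 genes lower in the null lungs (5.51% of all genes were). The same held for 2 genes higher in the null lungs (4.67% of all genes were). The median of the list turned to 0.02 without null replicate 3. *Dynlrb2*, a dynein light chain gene of MCCs, had the highest difference of the list, 0.24 with a standard error of 0.141. The 8 genes set as MCC markers are *Foxj1* and genes already counted in the motile cilium list, *Rsph1* among them. They are therefore no separate evidence on that list. Their mean level ran from 6.11 to 6.17 in the WT lungs and from 6.02 to 6.10 in the null lungs. *Rsph1*, at -0.46, had the lowest difference of the 8 and weighs most in that gap. Taken without it, the list means of the genotypes overlap, so the gap is not one of the markers as a group. The median difference of the 8 was -0.065, with 6 having lower means and 7 lying above the median signal of all genes. Markers of other cell types are given beside them, and their part in the values of the cilium genes was not tested. Club and secretory cell markers were lower for 4 of 5 (list means of 9.11 to 9.35 in WT and 8.56 to 9.28 in null lungs), basal cell markers, *Trp63* among them, higher for 4 of 4 (4.33 to 4.57 in WT and 4.35 to 4.76 in null lungs, all 4 below the median signal), and endothelial markers lower for 3 of 3 (9.19 to 9.24 in WT and 8.97 to 9.10 in null lungs). Alveolar type 1 markers were lower for 4 of 4 (8.89 to 9.10 in WT and 8.75 to 8.91 in null lungs), erythroid markers higher for 4 of 4 measured, and alveolar type 2 markers higher for 3 and lower for 2, with a median difference of 0.01. None of these markers passed after adjustment.

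Downstream of *Mcidas* and *Gmnc*, genes of centriole amplification were spread around 0. Of 23 measured, 13 were higher and 10 lower, with a median difference of 0.06. At an unadjusted p under 0.05, 1 of the 23 was higher (2.46% of all genes were) and 0 lower (2.96% of all genes were), and 0 passed after adjustment. It was *Cntrob*, a gene of daughter centrioles, at 0.22 with a standard error of 0.086, from 5.83 ± 0.06 (SD, n = 3) to 6.05 ± 0.03 (SD, n = 3). *Stil*, which acts with PLK4 at the start of centriole duplication, had a difference of 0.46, the largest of the list, but its WT lungs had an SD of 0.445 and the genotypes overlapped. *Pcm1* had a difference of 0.10 and *Cep76* of -0.15. *Deup1*, the deuterosome gene, had one of 0.14 with a standard error of 0.163, and *Plk4* one of 0.14 with a standard error of 0.236. The list was highest in WT replicate 1 and null replicate 3, at 0.118 and 0.094 above its overall mean, where the dividing cell markers stood at 0.185 and 0.336 above theirs. In null replicate 1 those markers stood at 0.212 and the centriole list at 0.028. The part of dividing cells in these values was not tested. Its median was -0.02 without null replicate 3 and -0.01 without WT replicate 3.

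**Figure D4:**
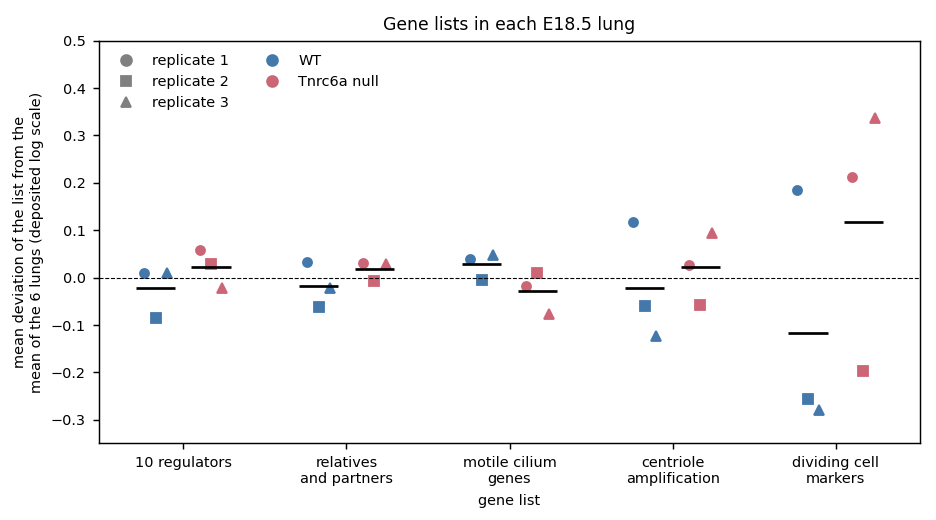
Mean of each gene list in each E18.5 lung, plotted as its deviation from the overall mean (vertical axis, deposited log scale), for the 10 regulators, the 3 lists around them and 9 markers of dividing cells. Each point is 1 lung, WT in blue and *Tnrc6a* null in red, and black lines are the means of 3 lungs. The regulators stay between -0.085 and 0.059, while the dividing cell markers run from -0.28 in WT replicate 3 to 0.336 in null replicate 3.

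Precision was limited by the number of arrays, and with 3 lungs a genotype the smallest two-sided p of an exact permutation test is 0.1. An interval that holds 0 does not show that a regulator was the same in both genotypes, and a whole-lung value does not separate MCCs from other cells that use the same gene.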

How the data were processed

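RNA of 6 E18.5 lungs (3 WT, 3 *Tnrc6a* null, 1 embryo per array) was measured on Affymetrix whole-transcript mouse gene arrays. Genotype and replicate come from the labels. The authors deposited 1 value per probe set and lung on a scale the labels call log2; MAS5 appears in the submitters' processing notes, with version and settings not given in the sources here. Values were used as deposited (array medians 4.98 to 5.03). Without scanner data, signal over background was not measured and dim genes were kept. A single gene symbol was given for 21789 of 35045 probe sets; others were dropped. Symbols were updated by Entrez ID for 21698 (GRCm38.p6 annotation), and the brightest probe set stood for a gene; each regulator had 1 probe set.

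The 19938 genes were fitted with limma 3.58.1 in R 4.3.3 (lmFit, eBayes with trend), null against WT lungs, p-values adjusted by Benjamini-Hochberg over all genes, a threshold of 0.05 and moderated 95% intervals. Summaries used Python 3.11.15, pandas 2.3.3 and matplotlib 3.10.9. The procedure was checked on simulated data. The regulators, gene lists, markers and alternatives were chosen with earlier results of these data known, so lists are described by counts and medians without a test. Genes named are *Tnrc6a*, the regulators, up to 4 genes of smallest p in each list, planned partners and the 5 genes most like *Foxj1*. *Cdc20b*, *Deup1*, *Plk4* and *Dynlrb2* were added after their values were seen. RefSeq promoters (GRCm38.p6) were searched for short motifs; the array annotation names no build. A planned comparison of protein sequences was not run, because protein sequences were not used here. A p-value sets the difference of genotype means against the spread between lungs of a genotype, with that spread moderated over all genes.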

Additional observations from a re-analysis of the deposited data

How the results depend on the processing

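Over the 10 regulators and 19 alternatives, 187 fits gave a value and 0 passed an adjusted p of 0.05 (lowest 0.354, *Mcidas*, with WT replicate 1 and null replicate 3 as a block); *Mcidas* lay at an unadjusted p under 0.05 in 2 of them. *Gmnc*, *Trp73* and *E2f5* lay below the median signal and have no value with that filter. Normalization between arrays turned no sign among the 10. Under other alternatives 4 genes turned sign. With array weights *Gmnc* stood at 0.104 and *E2f5* at 0.0402. Without both WT replicate 1 and null replicate 3, *Rfx2* stood at -0.015, *Gmnc* at 0.205 and *E2f5* at 0.095. Leaving out 1 lung, *Rfx2* ran from -0.012 to 0.113, *Gmnc* from -0.195 to 0.155, *Trp73* from -0.028 to 0.197 and *E2f5* from -0.095 to 0.055. Leaving out 1 lung, the median of the 10 ran from 0.012 (without WT replicate 2) to 0.077, and that of the motile cilium genes from -0.077 (without null replicate 2) to 0.022 (without null replicate 3). The median of the 10 lay between 0.028 and 0.093 with other normalizations between arrays and at 0.103 without both WT replicate 1 and null replicate 3. Centring over all probe sets gave medians of 0 for the relatives and -0.073 for the motile cilium genes. Over all genes, 1 passed after adjustment and 1081 lay at an unadjusted p under 0.05. Those counts were 2 and 2447 with array weights, 56 and 2971 with WT replicate 1 and null replicate 3 as a block, 23 and 2895 without both, and 0 and 1102 with the methods' t-test; among genes above the median signal 684 lay at an unadjusted p under 0.05. Leaving out 1 lung, they ran from 0 to 1 and from 614 (without WT replicate 2) to 1730 (without WT replicate 1). The 2 lungs were found from the data, so p-values that use them are not independent of that choice, and the cause was not tested. The replicate numbers do not pair the lungs (correlations of same-numbered deviations -0.295, 0.361 and -0.162). With the replicate number as a block 1 gene passed and 822 lay at an unadjusted p under 0.05. Such a block cannot move a difference here, so *Foxj1* was again at -0.063 (adjusted p = 0.959 from limma).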
